A study of Mus musculus with 4 samples.

Results

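The genes of pulmonary surfactant and of the lamellar body, the organelle that stores it, were read in sorted type II alveolar epithelial cells (AEC2) of mouse lung. The set had 10 genes, chosen by function but with earlier results of these data known. All probe sets on the array that the platform annotation gives to 1 of these symbols alone were taken. Of 45101 probe sets, 18 met this, and they covered 9 of the 10 genes. The lamellar body membrane gene Lamp3 was read by 1 probe set that carries a second gene's symbol, so no value is given for it. Cells of wild-type mice and of TLR4-/- mice (Tlr4-/- from here on) were taken either from untreated lungs or from lungs at day 4 after bleomycin, an agent that injures the alveolar epithelium. Each of the 4 arrays held RNA from cells pooled from 4 to 5 mice. Each group was thus 1 array, with no replicate. The labels name no strain, age, sex or Tlr4 allele. By its title the series asks how hyaluronan and the receptor TLR4 bear on the renewal of AEC2 and on fibrosis.

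Surfactant is a film of phospholipid and protein that lowers surface tension in the alveolus. AEC2 make it, store it in lamellar bodies and release it by exocytosis. Sftpb and Sftpc encode the hydrophobic proteins that spread the lipid film, and Sftpa1 and Sftpd encode collectins, soluble lectins of innate defence. ABCA3 pumps phospholipid into the lamellar body, LPCAT1 makes its dipalmitoylated phosphatidylcholine, napsin A (Napsa) trims the precursor of surfactant protein B, and SLC34A2 takes up phosphate. Lysozyme (Lyz2) is an antibacterial enzyme that AEC2 share with macrophages.

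The stretches of DNA just upstream of 5 of these genes are shown. Averaged per gene, all 5 were lowest on the Tlr4-/- day 4 array, by 0.02 (Sftpb) to 0.23 (Abca3, log2). They therefore offer no contrast between genes that were lowest there and genes that were not. The RefSeq promoter table (GRCm38.p6) held 7 of the 10 genes, without Sftpc, Sftpd and Napsa. Capitals mark matches, on either strand, to CTCAAG (a core bound by NKX2-1, the lung lineage factor), TGTTTNC (a core bound by FOXA factors) or the palindrome TTGCGCAA (bound by C/EBP factors). These motifs were chosen with the sequences in view, and no match overlapped another. All 5 lie on the plus strand and are written 5′ to 3′, ending at the base before the gene's start: Sftpb at chr6:72304360-72304609, Sftpa1 at chr14:41131538-41131787, Slc34a2 at chr5:53049103-53049352, Lpcat1 at chr13:73466981-73467230, and Abca3 at chr17:24351773-24351920, which is cut at the start of the RefSeq gene span because the table's window for Abca3 reaches into it.
Sftpb: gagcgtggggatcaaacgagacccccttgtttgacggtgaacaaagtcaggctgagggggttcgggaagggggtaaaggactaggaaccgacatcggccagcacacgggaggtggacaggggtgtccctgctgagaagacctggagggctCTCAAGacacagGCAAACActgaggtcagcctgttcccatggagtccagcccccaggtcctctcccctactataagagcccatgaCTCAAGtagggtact
Sftpa1: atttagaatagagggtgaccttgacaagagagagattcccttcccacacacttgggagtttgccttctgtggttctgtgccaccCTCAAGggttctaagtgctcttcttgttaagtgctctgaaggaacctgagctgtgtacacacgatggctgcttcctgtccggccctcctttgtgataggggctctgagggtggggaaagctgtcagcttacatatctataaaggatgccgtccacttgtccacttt
Slc34a2: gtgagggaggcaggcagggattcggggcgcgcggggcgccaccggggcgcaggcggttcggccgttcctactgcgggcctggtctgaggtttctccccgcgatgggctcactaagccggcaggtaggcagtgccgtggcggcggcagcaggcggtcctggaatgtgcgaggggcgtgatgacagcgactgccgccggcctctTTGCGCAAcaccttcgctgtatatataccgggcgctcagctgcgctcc
Lpcat1: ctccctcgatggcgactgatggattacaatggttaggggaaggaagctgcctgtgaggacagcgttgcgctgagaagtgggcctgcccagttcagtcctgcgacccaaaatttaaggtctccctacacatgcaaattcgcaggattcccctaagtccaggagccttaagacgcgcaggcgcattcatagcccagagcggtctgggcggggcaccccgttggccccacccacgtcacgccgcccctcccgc
Abca3: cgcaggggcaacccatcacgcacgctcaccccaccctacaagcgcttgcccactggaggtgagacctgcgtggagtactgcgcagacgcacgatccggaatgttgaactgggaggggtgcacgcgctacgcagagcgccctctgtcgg
Within 250 bases upstream, CTCAAG was found in 2 of the 7 genes (Sftpb, with 2 matches, and Sftpa1), TGTTTNC in 2 (Sftpb and Lamp3) and TTGCGCAA in 1 (Slc34a2). Of all 32851 promoters in the table, 13.3% held CTCAAG, 17.8% TGTTTNC and 0.164% TTGCGCAA. A match is a run of letters and does not show that a factor binds there.

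Signals are log2 values per probe set as deposited, and a difference of 1 is 2-fold. The arrays' highest signals were 14.48 to 14.55 and their medians 6.93 to 6.98. Across all genes, limma put the typical SD of the difference of 2 arrays at 0.23 (log2), and across single probe sets at 0.27. These stand in for the missing replicate error, and they were learned from how far the responses of the genotypes differ, not from repeated arrays. The targeted gene Tlr4 had 4 probe sets. On 1 of them the signals were 8.87 in wild type and 7.24 in Tlr4-/- when untreated, and 9.07 and 6.39 at day 4. Of the others, 1418162_at and 1442827_at were higher in both Tlr4-/- arrays and 1430695_at was dim on all 4. Which part of the gene is deleted is not known here, so these 3 neither bear out nor contradict the labels. AEC2 markers outside the set were present: Cxcl15 read 13.72 to 13.83 on the 4 arrays, and all 14 of the 16 listed markers that had a probe set of their own passed the brightness filter, a mean above the median of all genes.

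The transcript signals of Sftpb and Sftpc differed little across the 4 arrays, on probe sets near the top of the scale, where most genes had small ranges (given further on). Sftpb read 13.96 in untreated wild type, 13.99 in untreated Tlr4-/-, 13.96 in wild type at day 4 and 13.94 in Tlr4-/- at day 4, a range of 0.06. Sftpc, on its brighter probe set, read 14.07, 14.07, 14.07 and 14.12 in the same order, and on the other 13.99, 13.97, 14.05 and 13.99. All these differences were smaller than the spread of 0.27, and the brighter Sftpc probe set was highest on the array where Sftpb was lowest. In the additive limma fit over both genotypes the bleomycin effect was -0.03 ± 0.16 (SE, 2 pairs of arrays) for Sftpb, with a 95% interval of -0.37 to 0.30, and 0.03 ± 0.15 for Sftpc, with an interval of -0.30 to 0.37. Fewer AEC2 in a pool and less RNA per cell cannot be told apart in such bulk samples.

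**Figure D1:**
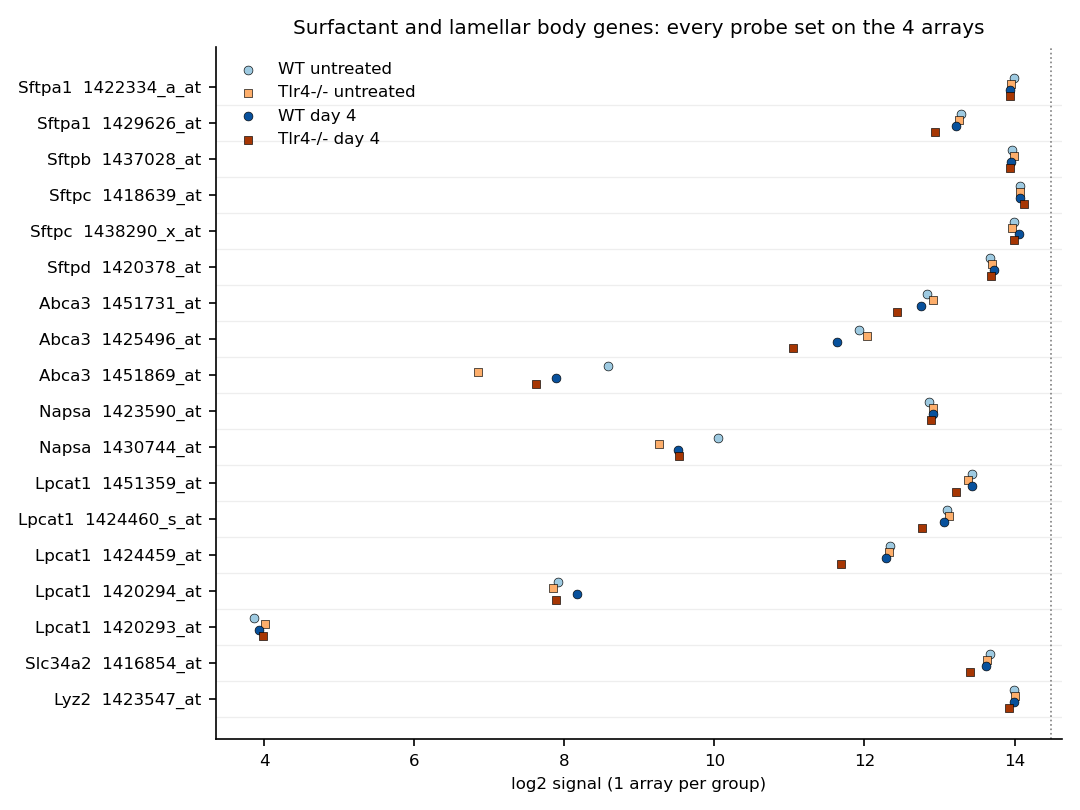
Log2 signal (horizontal axis) of the 18 probe sets of the set on the 4 arrays, 1 point per array, with circles for wild type and squares for Tlr4-/-. The dotted line marks 14.48, the lowest of the 4 array maxima. The probe sets of Sftpb, Sftpc and Lyz2 and the brighter one of Sftpa1 lie nearest to it, whereas those of Abca3 and Lpcat1 lie lower and are spread further.

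Of the collectins, Sftpd was steady and Sftpa1 differed by probe set. Sftpd read 13.67 in untreated wild type, 13.70 in untreated Tlr4-/-, 13.73 in wild type at day 4 and 13.69 in Tlr4-/- at day 4. The brighter Sftpa1 probe set read 13.99, 13.96, 13.94 and 13.94 in that order. The dimmer Sftpa1 probe set, 1429626_at, read 13.29, 13.26, 13.22 and 12.94, so the Tlr4-/- day 4 array stood 0.28 below the next lowest while the other 3 lay close together. Averaged over its probe sets, Sftpa1 had a bleomycin effect of -0.11 ± 0.16 (SE, limma adjusted p = 0.727) and a genotype effect of -0.08 ± 0.16 (limma adjusted p = 0.932). Sftpd had effects of 0.02 and -0.01.

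Abca3, the lipid transporter of the lamellar body, had the widest range of the set, and its probe sets disagreed. The brightest, 1451731_at, read 12.83 in untreated wild type, 12.92 in untreated Tlr4-/-, 12.75 in wild type at day 4 and 12.44 in Tlr4-/- at day 4. The next, 1425496_at, which cites the same transcript, read 11.93, 12.04, 11.64 and 11.05. On both, the untreated arrays were the highest and the Tlr4-/- day 4 array the lowest. After bleomycin their signals were 1.06-fold and 1.22-fold lower in wild type and 1.40-fold and 1.98-fold lower in Tlr4-/-. The remaining one, 1451869_at, cites another transcript, was dimmer and did not follow this order: it read 8.59, 6.85, 7.89 and 7.62, with untreated Tlr4-/- the lowest, 3.33-fold below untreated wild type. It was the 1 member probe set at 2-fold in any comparison, here and in the difference between the genotypes' responses, which was 1.46. Of the 17472 probe sets past the filter, 0.532% were at least 2-fold lower and 1.21% higher in untreated Tlr4-/-, and the responses differed by 2-fold in 1.19% (higher in Tlr4-/-) and 1.93% (lower). After bleomycin, with no member among them, 2.54% were 2-fold higher and 0.618% lower in wild type, and 2.6% and 1.64% in Tlr4-/-. At day 4 Tlr4-/- was 2-fold higher in 0.132% and lower in 0.155%, again with no member.

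Because the gene value averages these 3 probe sets, Abca3 depends on which are used. The mean gave a difference after bleomycin of -0.35 in wild type and -0.23 in Tlr4-/-, but the brightest probe set alone gave -0.08 and -0.48. In untreated cells the mean was lower in Tlr4-/- than in wild type by 0.51, and the brightest probe set was higher by 0.09. At day 4 both readings were lower in Tlr4-/-, at -0.39 and -0.31. The additive limma fit gave a bleomycin effect of -0.29 ± 0.16 (SE, lower in 2 of 2 genotypes, adjusted p = 0.281, 0.192 to 0.507 over the alternatives with all 4 arrays). The genotype effect was -0.45 ± 0.16 (lower in 2 of 2 treatments, limma adjusted p = 0.381, 0.263 to 0.999 over the same alternatives), with a 95% interval of -0.79 to -0.11, and -0.11 with the brightest probe set. Neither passed. Fitted on single probe sets, 1425496_at had a bleomycin effect of -0.64 ± 0.21 (SE, limma adjusted p = 0.114), where limma called 3.81% of probe sets higher and 1.34% lower.

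Napsa, the protease gene, was steady on its bright probe set and not on its dim one. Probe set 1423590_at read 12.86 in untreated wild type, 12.91 in untreated Tlr4-/-, 12.92 in wild type at day 4 and 12.89 in Tlr4-/- at day 4. Probe set 1430744_at read 10.05, 9.27, 9.51 and 9.52, with untreated wild type the highest and the day 4 arrays nearly equal. The gene average had a bleomycin effect of -0.06 ± 0.16 (SE, limma adjusted p = 0.863).

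**Figure D2:**
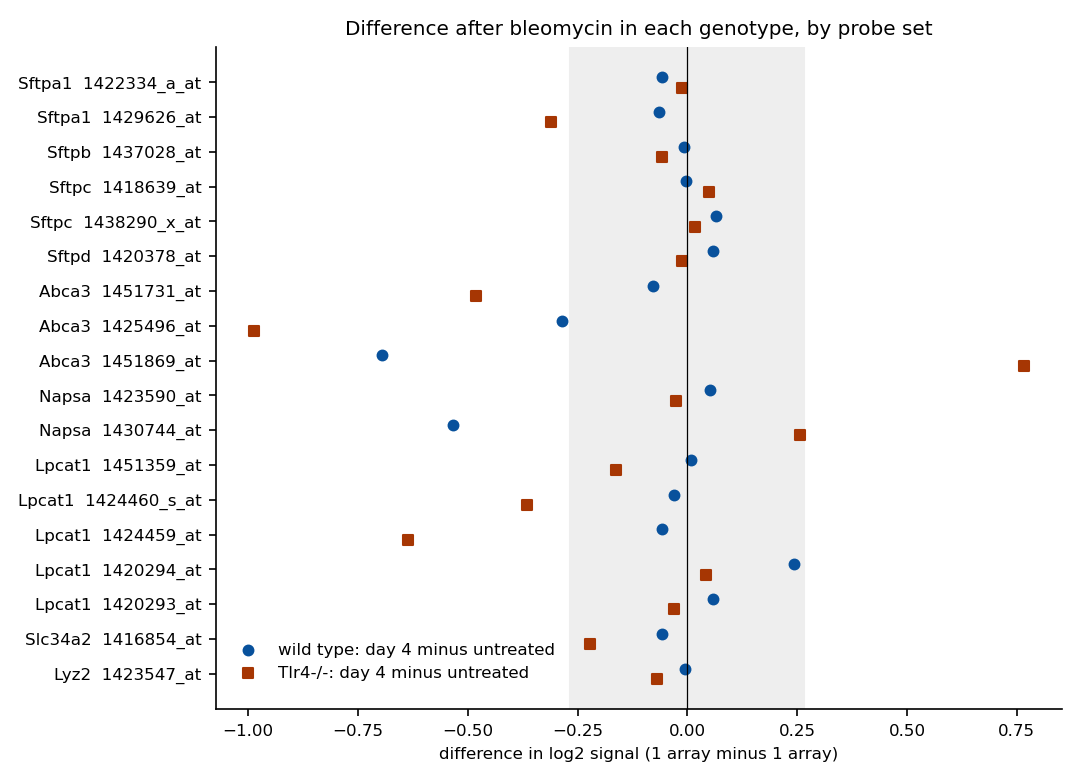
Difference in log2 signal between the day 4 and the untreated array (horizontal axis) for each of the 18 probe sets, with circles for wild type and squares for Tlr4-/-. The grey band spans 0.27 on either side of 0. Below the band in Tlr4-/- lie 2 Abca3, 2 Lpcat1 and 1 Sftpa1 probe sets; in wild type 2 Abca3 and 1 Napsa probe sets do, and the dimmest Abca3 one lies above it in Tlr4-/-.

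The lipid and phosphate genes Lpcat1 and Slc34a2 were lowest on the Tlr4-/- day 4 array. Lpcat1 had 5 probe sets. Its 3 bright ones read alike in this respect: 1451359_at gave 13.43 in untreated wild type, 13.38 in untreated Tlr4-/-, 13.44 in wild type at day 4 and 13.22 in Tlr4-/- at day 4. Probe set 1424460_s_at gave 13.10, 13.13, 13.07 and 12.77, and 1424459_at gave 12.34, 12.32, 12.28 and 11.69. On all 3 the Tlr4-/- day 4 array was the lowest and the other 3 arrays lay within 0.07 of each other. These 3 cite the same expressed sequence, so they are not independent readings. In Tlr4-/-, the day 4 signals were 1.12-fold, 1.29-fold and 1.55-fold lower than untreated, against differences of 0.01, -0.03 and -0.06 (log2) in wild type. The 2 dim probe sets did not show this, with signals of 7.85 to 8.16 and of 3.87 to 4.02. Averaged over all 5, the Lpcat1 bleomycin effect was -0.09 ± 0.16 (SE, limma adjusted p = 0.785).

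Slc34a2 read 13.67 in untreated wild type, 13.63 in untreated Tlr4-/-, 13.61 in wild type at day 4 and 13.41 in Tlr4-/- at day 4. The last array was 0.20 below the next, less than the spread of 0.27 taken over all probe sets. Bright genes varied less than most: the median range of the 34 genes with a mean of at least 13 was 0.13. That of Slc34a2 was 0.26. Its bleomycin effect was -0.14 ± 0.16 (SE, limma adjusted p = 0.656) and its genotype effect -0.12 ± 0.16.

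Lyz2 read 13.99 in untreated wild type, 14.00 in untreated Tlr4-/-, 13.99 in wild type at day 4 and 13.93 in Tlr4-/- at day 4, a range of 0.07. Its near copy Lyz1 has 2 probe sets of the kind that can read several transcripts, and these read 14.07 to 14.17 and 13.74 to 13.84. The Lyz1 probe set without that mark, 1450822_at, read 7.89 to 8.07. Because the transcripts are near-identical, signal from both lysozyme genes cannot be told apart here, and the Lyz2 level is uncertain in that respect.

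No member passed the test of either effect. For bleomycin, limma called 0 of the 9 members at an adjusted p under 0.05 (0 at an unadjusted p under 0.05), where 7.18% of 9096 genes rose and 2.53% fell. For genotype it called 0 of 9 (1 at an unadjusted p under 0.05, Abca3) and 0 of all genes, 822 of which had an unadjusted p under 0.05. At 2-fold, 0 of 9 members were past the threshold in any comparison of 2 arrays. After bleomycin 2.55% of genes were 2-fold higher and 0.308% lower in wild type, and 2.45% and 0.891% in Tlr4-/-. Between genotypes, 0.781% were higher and 0.341% lower in untreated Tlr4-/- cells, and 0.044% and 0.055% at day 4. The genotypes' responses differed by 2-fold in 0.671% (higher in Tlr4-/-) and 0.847% of genes. The limma intervals of the members reached from -0.63 (Abca3) to 0.37 (Sftpc) for bleomycin, so the fit leaves room for differences of that size.

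At day 4 most of the set's small differences between genotypes had the same sign. Averaged per gene, all 9 members had a lower value in Tlr4-/- than in wild type at day 4, from -0.01 (Sftpc and Napsa) to -0.39 (Abca3) with a median of -0.06, against 46.7% of all genes and a median of 0.02. By probe set 14 of 18 were lower, and those higher included the brightest of Sftpc (0.05) and of Sftpa1 (0.01) and the dimmer of Napsa (0.01). Lower values were not particular to the set: the median was -0.04 over the 34 genes with a mean signal of at least 13, though 6 of these are members. Also lower in Tlr4-/- at day 4 were 12 of 14 other AEC2 markers (median -0.17) and 14 of 18 regulators of surfactant genes. Etv5 is in both of these lists. The Tlr4-/- day 4 array was the lowest of the 4 for 6 of the 9 members, where this held for 25.3% of all genes and for 50% of the 34 genes with a mean signal of at least 13. At gene level 1 of the 9, Abca3, stood below every other array there by more than 0.23, as did 5.47% of all genes. By probe set the array was the lowest for 9 of the 17 past the filter, against 26.2% of all probe sets, and 5 of the 17 stood below every other array by more than 0.27, namely 2 of Abca3, 2 of Lpcat1 and 1 of Sftpa1. Of all probe sets, 6.26% did. These shares describe single arrays and were not tested.

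**Figure D3:**
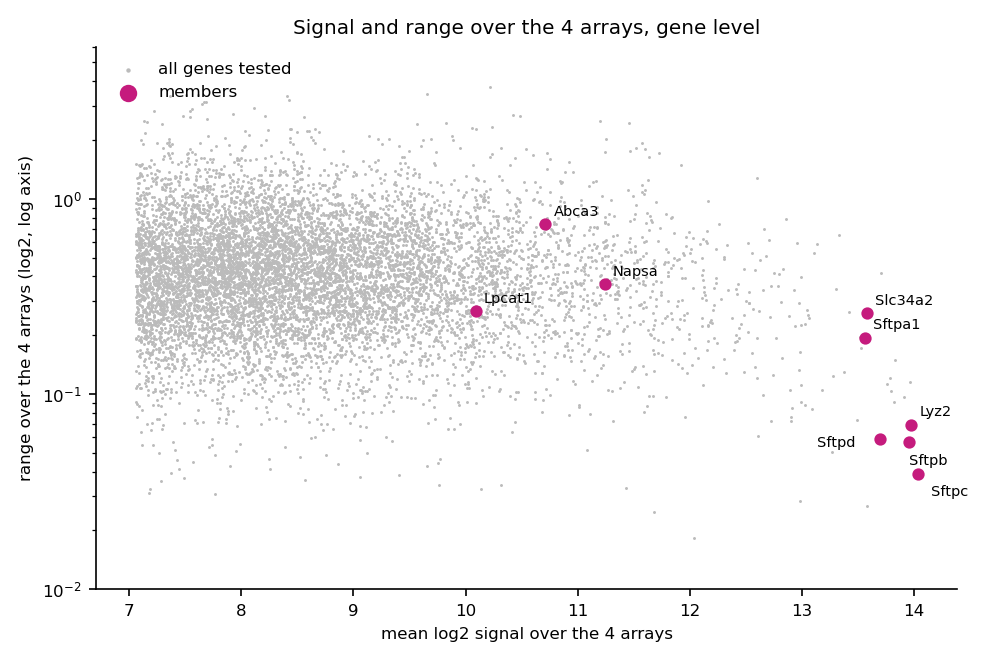
Range over the 4 arrays (vertical log axis, log2 units) against the mean log2 signal of each of 9096 genes tested (grey) and the 9 members (coloured). Sftpb, Sftpc, Sftpd and Lyz2 sit at the bright end with ranges of 0.04 to 0.07, and Abca3, at 0.74, has the widest range of the members.

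The members with the smallest ranges were also the brightest. The 6 genes Sftpa1, Sftpb, Sftpc, Sftpd, Slc34a2 and Lyz2, were among the 34 genes with a mean of at least 13. Over those 34 genes the median range across the 4 arrays was 0.13, against 0.41 for all genes tested and for genes with a mean of 9 to 11. Limma called 2.94% of the 34 genes higher and 0% lower after bleomycin. Within Sftpa1, Abca3, Lpcat1 and Napsa, the brightest probe set differed less after bleomycin in Tlr4-/- than the next brightest. For Napsa these differences had opposite signs (-0.02 and 0.26). Within Sftpc the brightest probe set differed more (0.05 against 0.02). Whether the signals were limited by the top of the scale was not tested.

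For Abca3, the member with the widest range, the 5 genes with the most similar profile over the 4 arrays were Rbpjl, Ggn, Mt3, Usp8 and Scgb1b27. Likeness was the root mean square difference between profiles centred on their own means, and it was 0.03, 0.04, 0.04, 0.05 and 0.05 (log2). Rbpjl, for example, read 9.66 in untreated wild type, 9.13 in untreated Tlr4-/-, 9.32 in wild type at day 4 and 8.99 in Tlr4-/- at day 4. With 4 arrays and the disagreeing dim probe set of Abca3 in its average, such a match is a description only.

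Around the set, 1 gene for making surfactant lipid passed the test, and it fell. Of 28 listed genes for lipid synthesis and supply, 25 passed the filter. Limma called 0 risen and 1 fallen after bleomycin, where 7.18% of all genes rose and 2.53% fell. The list's median bleomycin effect was -0.16, against 0.04 for all genes. The fallen gene was Gpam, which starts glycerolipid synthesis: it read 11.58, 11.45, 10.93 and 10.74 in untreated wild type, untreated Tlr4-/-, wild type at day 4 and Tlr4-/- at day 4, and fell by 0.68 ± 0.16 (SE, lower in 2 of 2 genotypes, limma adjusted p = 0.0157). Acaca, which makes malonyl-CoA, and Mfsd2a, a transporter of lysolipids, had effects of -0.44 ± 0.16 and -0.43 ± 0.16 (limma adjusted p = 0.10 and 0.105), and the choline kinase gene Chkb one of 0.53 ± 0.17 (limma adjusted p = 0.0692). In Tlr4-/- the list's median difference after bleomycin was -0.20, and in wild type -0.03. By single probe set, the Gpam effect was -0.45 on the brighter (limma adjusted p = 0.179) and -0.91 on the other (limma adjusted p = 0.0189).

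Genes that process surfactant proteins or move lamellar bodies went both ways. Of 30 listed, 21 passed the filter, and limma called 1 risen and 2 fallen, with a median effect of 0.05. The shares of all genes were 7.18% risen and 2.53% fallen. Rab27b, a small GTPase of regulated secretion, read 8.83, 8.83, 8.29 and 7.85 in the same order and fell by 0.76 ± 0.17 (SE, limma adjusted p = 0.0124). Nedd4l, a ubiquitin ligase that limits the epithelial sodium channel, fell by 0.71 ± 0.16 (limma adjusted p = 0.0123). Psap, the precursor of the lysosomal saposins, rose by 0.76 ± 0.20 (limma adjusted p = 0.035), with differences of 1.22 in wild type and 0.30 in Tlr4-/-. Neither Psap probe set passed alone (limma adjusted p = 0.0811 and 0.107). For Nedd4l, 1456044_at, 1437400_at and 1441305_at passed alone but its brightest did not (effect -0.46, limma adjusted p = 0.176). The surfactant-sensing receptor gene Adgrf5 had an effect of -0.45 ± 0.16 and the protease gene Ctsh, which acts on surfactant protein precursors and is named here after its values were seen, one of 0.40 ± 0.16, neither past the test (limma adjusted p = 0.0947 and 0.139).

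**Figure D4:**
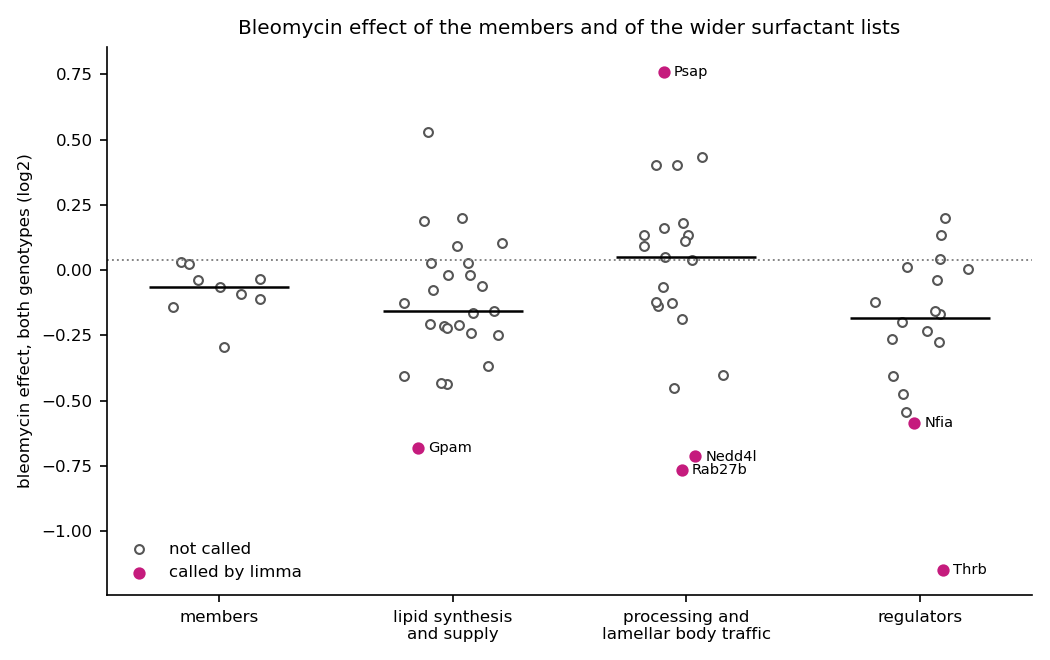
Bleomycin effect over both genotypes (vertical axis, log2, limma additive fit) of the 9 members and of the genes past the filter in 3 lists of the surfactant pathway, 1 point per gene. Filled points passed at an adjusted p under 0.05, black bars are list medians and the dotted line is the median of all genes, 0.04; no member is filled, and Gpam, Rab27b, Nedd4l, Psap, Nfia and Thrb are.

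Among regulators of surfactant genes, 18 of 18 passed the filter, and limma called 0 risen and 2 fallen, with a median effect of -0.18. Again, 7.18% of all genes rose and 2.53% fell. The thyroid hormone receptor gene Thrb, read by 1 probe set, gave 7.86, 7.73, 6.95 and 6.35. It fell by 1.15 ± 0.17 (SE, limma adjusted p = 0.000988). Both its day 4 signals lay below the filter's cut of 7.05, so Thrb passed the filter only through its untreated signals. Nfia, a nuclear factor I gene, fell by 0.58 ± 0.16 (limma adjusted p = 0.0389). Of its 6 probe sets, only 1456087_at and 1438236_at passed alone, with effects of -0.81 and -0.96 (limma adjusted p = 0.0347 and 0.0151). The brightest Nfia probe set had an effect of -0.31 (limma adjusted p = 0.404). Cebpa and Gata6, transcription factors of the AEC2 programme, had effects of -0.54 ± 0.17 and -0.48 ± 0.16 without passing (limma adjusted p = 0.0634 and 0.0747). Nkx2-1, named after its values were seen, read 9.82, 9.71, 9.44 and 9.28, an effect of -0.40 ± 0.16 that did not pass (limma adjusted p = 0.129).

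Fits that left out 1 array also dropped genotype from the model, and without a day 4 array that arm held 1 array, assumed to vary like the others. Without the Tlr4-/- day 4 array or the wild-type day 4 array they called none of the 6 genes (0 of 6), with limma adjusted p of 0.323 to 0.785 and 0.0764 to 0.441. All 6 kept their sign in these fits: the effect was -0.69 and -0.73 for Nedd4l, -0.59 and -0.78 for Gpam, -0.55 and -0.98 for Rab27b, -0.37 and -0.80 for Nfia, -0.85 and -1.45 for Thrb, and 1.02 and 0.50 for Psap. Without untreated wild type, Gpam, Rab27b, Psap and Nfia were not called (limma adjusted p of 0.0527 to 0.171), and without untreated Tlr4-/- Nfia was not (0.065). The same fits called 0% of all genes higher without the Tlr4-/- day 4 array and 0.198% without the wild-type day 4 array, so almost no gene could be called there and the lost calls say little about these 6. Of the alternatives that could be run with all 4 arrays, Thrb was called in 6 of 6, Rab27b and Nedd4l in 5 of 8, Gpam in 4, Nfia in 3 and Psap in 2. Thrb had no result with the brightest probe set per gene or at probe set level, where its dim probe set did not pass the filter. Its 6 of 6 is therefore not on equal terms with the counts of 8.

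Markers of other cells moved on the same arrays, on which limma called 7.18% of all genes risen and 2.53% fallen after bleomycin. Of 20 macrophage and leukocyte markers, 14 passed the filter and 13 rose after bleomycin, led by the complement genes C1qb, C1qc and C1qa, and the summed linear signal of the 20 was 5027 in untreated wild type, 5363 in untreated Tlr4-/-, 13113 in wild type at day 4 and 16366 in Tlr4-/- at day 4. C1qb read 6.74, 7.35, 9.43 and 10.12. The filter took the mean of all 4 arrays, with a cut of 7.05. C1qa (5.86 and 6.17), C1qc (6.44 and 6.19) and Itgax (6.23 and 6.23) lay below it in both untreated arrays. They passed through their day 4 signals. The count of risen markers is thus in part set by the filter, whereas the summed signal covers all 20. The summed signal of the 9 members was 94003, 92654, 92842 and 88182, and that of the 14 other AEC2 markers was 88932, 90597, 81557 and 71988, of which 3 fell (Acoxl, Lgi3 and Hc) and 0 rose. The Tlr4-/- day 4 array thus held the highest macrophage and the lowest AEC2 sums. The part of other cells' RNA in the members' values was not tested.

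Club cells also express Sftpa1, Sftpb and Sftpd. Of 12 club markers, 12 passed and 1 rose, Reg3g, and their summed signal was 44794, 31928, 37746 and 35681. Of 14 AEC1 markers 12 passed and 4 rose, led by Pdpn, Akap5 and Cav1, with a sum of 19741, 22552, 25350 and 26008. Mesothelial markers had 5 of 8 past the filter and 4 risen, led by Gpm6a, Msln and Upk3b, with sums of 1984, 1481, 3556 and 3674, and fibroblast markers 4 of 12 and 1 risen, Col1a1, with sums of 1204, 913, 2113 and 1782. Gpm6a (5.67) and Upk3b (6.75) in untreated Tlr4-/-, and Pdpn (6.83) in untreated wild type, lay below the filter's cut of 7.05. The counts of risen AEC1 and mesothelial markers are thus also in part set by the filter. Of 10 ciliated markers, 4 passed and 2 fell, Dynlrb2 and Tppp3 (sums 2837, 2504, 1983 and 2005). Endothelial markers had 3 of 12 past the filter and 0 called (sums 2251, 2421, 2379 and 2362), and 0 of 12 dendritic cell markers passed it (sums 868, 955, 1159 and 920). Of 16 near copies of the members 7 passed, with Ctsd risen and Mbl1 fallen.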

How the data were processed

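The deposited values are log2 signals per probe set on an Affymetrix 3' array: the log2 scale was read from the values, and the signal software, normalization and detection calls are not given in the sources used here. Per the labels' protocols, the RNA was turned into amplified cDNA, which then received biotin. Of 45101 probe sets, 34945 carried 1 gene symbol, 34741 of them found by identifier in the RefSeq gene table. Probe sets were averaged per gene (18193 genes), and the 9096 with a mean above the median of 7.05 entered an additive model of treatment and genotype with 1 residual degree of freedom (limma 3.58.1, R 4.3.3), adjusted by Benjamini-Hochberg over all of them and called under 0.05. A difference between the genotypes' responses counts as error there. Pairs of arrays had no test and a 2-fold threshold. An exact permutation test was not possible with 1 array per group, and the precision is limited by the number of arrays. The prior had 11.4 degrees of freedom. The step was tested on simulated data, with results that are not given here. Summed signals are sums of 2 to the power of gene values.

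The members and the lists (lipid synthesis, processing and traffic, regulators, near copies, and markers of AEC2, AEC1, macrophages, dendritic, club, ciliated, mesothelial, endothelial and fibroblast cells) were chosen with earlier results of these data known. Named genes were all members, pathway list genes called by limma, up to 4 per pathway list and up to 3 per marker list by size of the bleomycin effect, and 5 genes like the member of widest range; other names were examples. Alternatives were quantile normalization, centring on array medians, other ways to use several probe sets, no filter, an intensity trend, no other factor, and leaving out each array (in a fit with no other factor).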

Additional observations from a re-analysis of the deposited data

Results flagged for a closer look

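The dim Abca3 probe set 1451869_at went opposite ways after bleomycin in the genotypes, lower by 0.70 in wild type (difference -0.70) and higher by 0.77 in Tlr4-/-, so the responses differed by 1.46 (log2). The dimmer Napsa probe set 1430744_at did the same, with -0.53 and 0.26, a difference of 0.79. Each difference compares single arrays and was not tested, and the brighter probe sets of both genes did not show it, with differences in response of -0.40 and -0.70 for Abca3 and -0.08 for Napsa.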

How the results depend on the processing

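No member was called for either effect under any alternative run (0 of 9 each), and quantile normalization, centring, the filter and the probe set suffix moved no member's difference by more than 0.23. Taking only the brightest probe set of a gene, or single probe sets, each moved 7 differences of Abca3 or Napsa past that; the report gives those of Abca3, and its response difference went from 0.12 to -0.40. Leaving out 1 array moved the uncalled bleomycin effects of Abca3 (-0.29) to between -0.55 and -0.04, Napsa (-0.06) to between -0.24 and 0.12, Lpcat1 (-0.09) to between -0.23 and 0.04, Sftpa1 (-0.11) to between -0.18 and -0.04 and Slc34a2 (-0.14) to between -0.24 and -0.04, and the genotype effect of Abca3 (-0.45) to between -0.63 and -0.27. The share of genes called risen after bleomycin, 7.18%, was 4.14% with arrays centred on their medians, 3.06% when each gene took its brightest probe set, 3.81% at probe set level, 1.75% without the filter, 2.79% with no other factor, and 0% to 8.88% leaving out 1 array as well as the other factor, to be set against the 2.79% (0.198% without the wild-type and 0% without the Tlr4-/- day 4 array, 4.21% without untreated wild type). The share fallen, 2.53%, was 1.17%, 0.682%, 1.34%, 0.264% and 0.671% in the same order, and 0% to 2.53% in those fits (0.033% without wild type at day 4). For genotype, leaving out probe sets ending in _x_at or _s_at called 0.123% higher and 0.0447% lower, against 0% in the report. At 2-fold, genes lower in wild type after bleomycin (0.308%) were 0.517% after quantile normalization and 0.618% at probe set level, and those lower in Tlr4-/- (0.891%) 1.4% by the brightest probe set and 1.64% at probe set level. Untreated Tlr4-/- against wild type (0.781% higher, 0.341% lower) gave 1.34% higher by the brightest probe set, and 1.21% higher and 0.532% lower at probe set level. At day 4 (0.044% higher, 0.055% lower) it gave 0.121% higher by the brightest probe set, 0.132% higher and 0.155% lower at probe set level, and 0.0989% higher without the filter. Response differences (0.671% higher, 0.847% lower) gave 1.52% lower by the brightest probe set, and 1.19% higher and 1.93% lower at probe set level. The causes of these shifts were not tested. No paired analysis was possible because the labels give no replicate numbers that tie arrays across groups of 1 array; the additive model already compares day 4 with untreated cells within each genotype.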
